A study of Homo sapiens with 6 samples.

Results

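CEACAM1, CEACAM5, CEACAM6, CEACAM7 and CEACAM19 are 5 genes of the carcinoembryonic antigen family of cell adhesion molecules. Their levels were read in HCT116 colorectal carcinoma cells with and without PTTG1. Every probe that the platform annotation pairs with 1 of these 5 genes, under its current or an older symbol, was taken, which gave 7 of the 47310 probes on the array: 3 for CEACAM1 and 1 for each of the others. The genes were chosen with the difference between the lines already known, CEACAM1 being 1 of the genes known to be higher in PTTG1-/- cells. Its values are therefore given as a description, and nothing is read from a test of them.

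The study set HCT116 cells in which both copies of PTTG1, the gene of securin, had been removed by homologous recombination (PTTG1-/-, labelled PTTGKO) against HCT116 cells that kept the gene (WT). Each line gave 3 samples of total RNA, hybridised to Illumina HumanHT-12 V4 beadchips, on which a probe shines the more, the more transcript binds to it. Both lines were grown under the standard conditions for HCT116, came from another laboratory and received no other treatment that the labels name. The sources do not say whether the 3 samples of a line were separate cultures, so every p-value measures the spread between samples, which may be technical, and the absence of PTTG1 cannot be told apart from other differences between the 2 lines.

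CEACAM proteins belong to the immunoglobulin superfamily and bind each other, or themselves, between neighbouring cells. CEACAM1 crosses the membrane and is made with a long or a short cytoplasmic tail by alternative splicing. The long tail carries inhibitory motifs that recruit the phosphatases SHP-1 and SHP-2. CEACAM5 (the carcinoembryonic antigen measured in serum in colorectal cancer), CEACAM6 and CEACAM7 are held on the outer membrane by a lipid (GPI) anchor and are known from the surface of differentiated colonocytes, while CEACAM19 is a less studied member with a transmembrane segment.

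Summed over all probes, the intensity lay between 14796418 and 16708425 for PTTG1-/- arrays and between 14804249 and 15565151 for WT arrays. A probe was called above background on an array where its detection p, the share of negative control probes at least as bright, was under 0.05. That held for 35.9% to 37.3% of the probes in PTTG1-/- cells and 35.7% to 36.8% in WT cells, and the lowest intensity so called was 76.5 to 79.3 on PTTG1-/- arrays and 72.7 to 78.6 on WT arrays. PTTG1 itself was not above background at probe ILMN_1753196 on any PTTG1-/- array, at a mean intensity of 71.8, against 1803 on the WT arrays. In the background-corrected and normalized values it was at least 49.3-fold lower in PTTG1-/- cells. The difference of mean log2 levels was -5.83 in those values and -4.77 in the authors' processed values, so its size depends on the processing. A second PTTG1 probe, ILMN_2042771, averaged 2293 in PTTG1-/- cells and 4200 in WT cells, and its corrected level was 1.87-fold lower in PTTG1-/- cells. Neither probe's position relative to the removed part of the gene was known.

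Of the 5 genes, CEACAM1 alone had a probe above background on any array, and that probe, ILMN_1716815, was above it in PTTG1-/- cells and at it in WT cells. Its intensity was 128.6, 117.7 and 132.8 on PTTG1-/- arrays 1, 2 and 3, against 54.1, 57.7 and 63.5 on WT arrays 1, 2 and 3. The lowest PTTG1-/- array lay far above the highest WT array. The means were 126 ± 7.79 in PTTG1-/- cells and 58.4 ± 4.74 in WT cells (SD, n = 3 each). The detection p was 0 on all 3 PTTG1-/- arrays, against 0.505, 0.331 and 0.274 on the WT arrays, so the WT readings were those of an ordinary negative control probe.

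The CEACAM1 levels were next corrected for background and normalized by quantiles across the 6 arrays. The log2 level of ILMN_1716815 was then 6.51, 6.27 and 6.33 on the PTTG1-/- arrays, against 4.60, 4.70 and 4.73 on the WT arrays. The mean was 6.37 ± 0.12 in PTTG1-/- cells and 4.68 ± 0.07 in WT cells, and the difference in log2 level was 1.70 with a standard error of 0.09. Because no WT array measured CEACAM1 above background, only a lower limit of its change can be given. On this background-corrected scale, against the lowest signal above background on each WT array, the CEACAM1 transcripts that this probe binds were at least 2.29-fold higher in PTTG1-/- cells. In RNA from whole cultures, more expressing cells and more RNA per cell cannot be told apart.

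That limit depended on how background was treated. Without background correction the difference in log2 level fell to 1.06, and in the processed values deposited by the authors it was 1.09, where CEACAM1 read 7.11, 6.95 and 6.99 in PTTG1-/- cells and 5.85, 5.96 and 5.99 in WT cells. Over 14 other ways of processing the arrays the difference lay between 1.06 and 1.74 and the limit between 1.62-fold and 2.37-fold. Those that changed only the filter, the averaging of a gene's probes or the fit could not move either value. Leaving out any 1 array gave differences of 1.63 to 1.74.

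**Figure D1:**
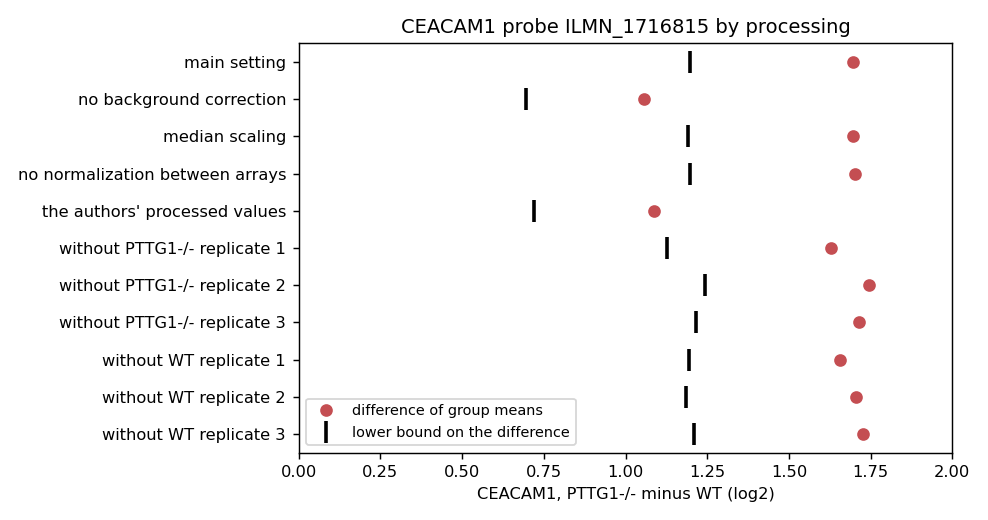
Difference in log2 level of CEACAM1 (probe ILMN_1716815), PTTG1-/- minus WT, on the x axis, with 1 row for each setting that changes the values or the arrays used. Circles are the difference of group means and black bars the lower limit set by the background of the WT arrays. The circles lie between 1.63 and 1.74 except without background correction (1.06) and in the authors' processed values (1.09).

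The other 2 CEACAM1 probes did not leave background. ILMN_2371724, which the annotation assigns to the same transcript record as ILMN_1716815, read 74.6, 61.6 and 78.4 on the PTTG1-/- arrays, against 61.7, 48.3 and 50.8 on the WT arrays. PTTG1-/- arrays 1 and 3 were the highest 2 of the 6 and came closest to the threshold of all member readings that missed it, at detection p of 0.0857 and 0.0571, but PTTG1-/- array 2 lay just under WT array 1. Its mean was 71.5 ± 8.81 in PTTG1-/- cells and 53.6 ± 7.13 in WT cells. ILMN_1664330, assigned to another CEACAM1 transcript record, read 58.7, 50.8 and 64.5 on the PTTG1-/- arrays against 47.5, 62.4 and 66.0 on the WT arrays, and the highest of the 6 readings was in WT. The higher CEACAM1 signal in PTTG1-/- cells was thus measured at 1 of 3 probes, and no fold is given for the others, which were at background in both lines. Which splice forms, long or short tailed, each probe binds was not tested, since the probe sequences were not used here. Whether ILMN_1716815 also binds transcripts of related genes was not tested either, and the probes of those genes are described next.

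CEACAM5, CEACAM6, CEACAM7 and CEACAM19 stayed at background in both lines. CEACAM5, the carcinoembryonic antigen, read 61.8, 63.8 and 59.7 in PTTG1-/- cells and 54.1, 54.8 and 60.6 in WT cells. CEACAM6, its close GPI-anchored relative, read 61.8, 51.5 and 52.8 in PTTG1-/- cells and 49.8, 45.8 and 51.1 in WT cells. The CEACAM5 intensities of the 2 lines overlapped. Those of CEACAM6 did not, by a gap narrower than the spread within either line, but its normalized log2 levels did, and all 6 were background readings. The mean intensities in PTTG1-/- and WT cells were 61.8 ± 2.05 against 56.5 ± 3.57 for CEACAM5 and 55.4 ± 5.61 against 48.9 ± 2.76 for CEACAM6.

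CEACAM7, the third GPI-anchored member, read 52.8, 52.7 and 52.9 in PTTG1-/- cells, the narrowest spread of the 7 probes, and 49.4, 52.6 and 58.5 in WT cells, where the values lay on both sides of the PTTG1-/- ones. CEACAM19 read 55.4, 57.4 and 63.9 in PTTG1-/- cells and 52.3, 62.0 and 52.8 in WT cells, again with overlap. Over these 4 genes, the 24 readings ran from 51.5 to 63.9 in PTTG1-/- cells and from 45.8 to 62.0 in WT cells, with detection p between 0.203 and 0.808. A difference between the lines in any of these 4 genes was not detectable, and the readings put no direction on them. They do not show that the transcripts were absent.

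**Figure D2:**
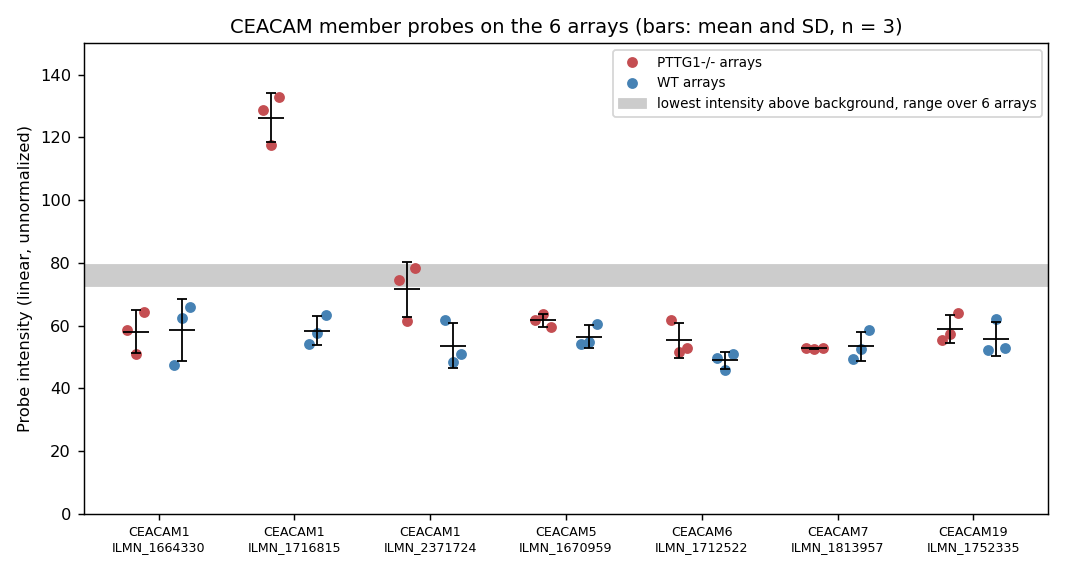
Unnormalized probe intensity (y axis, linear) of the 7 probes of the 5 CEACAM genes on the 3 PTTG1-/- arrays (red, left of each pair) and the 3 WT arrays (blue, right), with mean and SD as black bars and the range of the lowest intensity above background as a grey band. CEACAM1 probe ILMN_1716815 on the PTTG1-/- arrays, at 117.7 to 132.8, is the only set of points above the band.

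In the fit across all genes, 1 of the 5 CEACAM genes could be tested, and that gene, CEACAM1, was called higher in PTTG1-/- cells. Of the 10642 genes tested, 17.4% were called, 9.58% as higher and 7.78% as lower in PTTG1-/- cells. The other 4 genes were under the filter, which asks for 3 of 6 arrays above background. Since CEACAM1 passed that filter only through the arrays on which it was high, and was chosen on this contrast, nothing is read from this count. The same holds for its place among the 111 probes (0.235% of all probes) that were above background on all 3 PTTG1-/- arrays and on no WT array, against 79 probes with the opposite pattern.

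The promoters of CEACAM1, CEACAM5 and CEACAM6 are shown because these genes share ancestry and a chromosome, yet only the first was measured above background in PTTG1-/- cells. The sequences are from RefSeq on GRCh38.p14, 5′ to 3′ on the strand of the gene, from 250 bases before to 50 bases after the gene's start, and 4 of the 5 genes had one. CEACAM1 lies at chr19:42528432-42528731 on the minus strand, CEACAM5 at chr19:41708376-41708675 on the plus strand and CEACAM6 at chr19:41755280-41755579 on the plus strand. Capitals mark an E-box (CACGTG, the sequence that USF factors bind) or a GC box (GGGCGG, or CCGCCC on the other strand, the sequence that Sp factors bind).
CEACAM1: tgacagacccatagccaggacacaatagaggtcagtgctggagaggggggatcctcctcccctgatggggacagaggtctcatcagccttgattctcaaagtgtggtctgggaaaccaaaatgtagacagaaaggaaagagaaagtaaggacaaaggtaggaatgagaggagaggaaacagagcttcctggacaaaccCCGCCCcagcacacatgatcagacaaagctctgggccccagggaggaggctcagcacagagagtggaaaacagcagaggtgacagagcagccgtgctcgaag
CEACAM5: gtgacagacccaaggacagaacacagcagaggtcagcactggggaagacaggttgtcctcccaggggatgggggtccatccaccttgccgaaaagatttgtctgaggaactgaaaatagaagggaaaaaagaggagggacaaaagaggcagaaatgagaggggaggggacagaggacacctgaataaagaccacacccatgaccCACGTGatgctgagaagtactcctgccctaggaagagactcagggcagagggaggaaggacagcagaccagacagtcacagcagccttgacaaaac
CEACAM6: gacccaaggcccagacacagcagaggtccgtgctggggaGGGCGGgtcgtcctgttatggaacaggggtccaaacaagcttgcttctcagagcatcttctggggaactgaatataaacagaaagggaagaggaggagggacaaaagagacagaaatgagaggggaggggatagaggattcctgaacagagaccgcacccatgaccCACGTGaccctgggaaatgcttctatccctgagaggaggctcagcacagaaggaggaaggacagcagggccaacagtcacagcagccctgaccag

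The CEACAM1 window held 1 GC box, beginning at -52 from the start, and no E-box. CEACAM5 held an E-box beginning at -46 and no GC box. CEACAM6 held an E-box beginning at -45, near the position of that in CEACAM5, and a GC box beginning at -211. CEACAM7, at chr19:41688221-41688520 on the minus strand, held neither. Searched on both strands, an E-box was found in 7.26% and a GC box in 45.0% of 35116 promoters of this length, and the motifs do not overlap each other in these windows. The letters TATAAA, searched in the same way, were found in 11.5% of those promoters. Among these windows only that of CEACAM6 held them, left in lower case above. Aligned in pairs, the CEACAM1 window was 65.6%, 68.2% and 71.2% identical to those of CEACAM5, CEACAM6 and CEACAM7, while those 3 were 74.7% to 81.4% identical to each other. These matches describe the sequence and were not tested as sites.

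The family around these genes was also near background. The array carries 34 probes for CEACAM and pregnancy-specific glycoprotein (PSG) genes, and 27 of them belong to 18 genes other than the 5. Among the 7 probes of other CEACAM genes, intensities ran from 41.6 to 91.0 on PTTG1-/- arrays and from 34.9 to 86.0 on WT arrays. CEACAM21, which lies before CEACAM7 in the chromosome order, was above background on PTTG1-/- arrays 1 and 3 and on WT array 3, at 81.9, 71.6 and 91.0 in PTTG1-/- cells against 72.0, 71.3 and 86.0 in WT cells. It was the only other family gene that could be tested and did not pass (log2 difference 0.06, SE 0.14, limma adjusted p = 0.796). CEACAM4 passed background on WT array 3 alone. The 20 PSG probes read 38.4 to 88.0 on PTTG1-/- arrays and 36.9 to 72.2 on WT arrays, and 1 of them, for PSG4, passed on PTTG1-/- array 3 alone. CEACAM3 and CEACAM8, receptors of granulocytes, were at background on all 6 arrays.

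**Figure D3:**
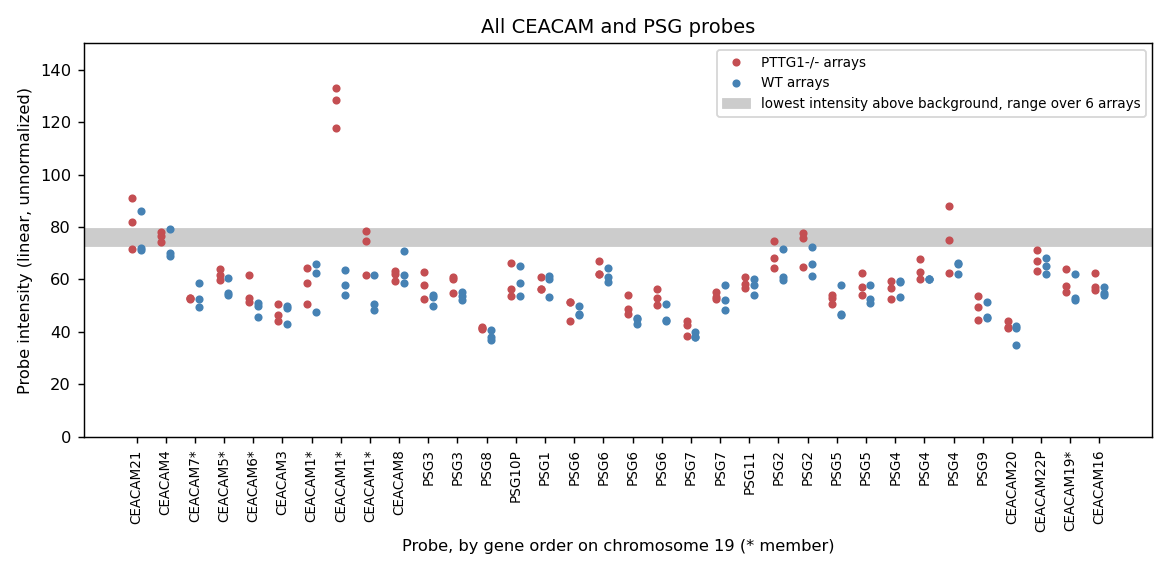
Unnormalized intensity (y axis, linear) of all 34 CEACAM and PSG probes on the 3 PTTG1-/- arrays (red, left) and the 3 WT arrays (blue, right), in the order of their genes on chromosome 19, with asterisks at the 5 described genes and the lowest intensity above background as a grey band. The 3 PTTG1-/- points of 1 CEACAM1 probe, at 117.7 to 132.8, stand apart. Elsewhere the highest reading is 91.0, of CEACAM21.

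Whether genes beside the CEACAM loci differed with CEACAM1 was read from the 10 named genes on each side of each of the 5, a list of 60 genes on chromosome 19. Of 37 with a probe, 17 could be tested. None was called higher, 1 was called lower and 16 did not pass, with a median log2 difference of 0.02, against 0.00 over all genes. The share called was 5.88%, against 17.4% of all genes tested. The list pools the genes around all 5, so its median is not that of the neighbours of CEACAM1 alone. The tested gene nearest to CEACAM1 was LIPE, hormone-sensitive lipase, which lies 3 genes away. It had a log2 difference of 0.19 (SE 0.10, limma adjusted p = 0.220). CNFN, 5 genes away, had 0.30 (SE 0.10, adjusted p = 0.0668), and PAFAH1B3, 10 genes away, had 0.19. TMEM145 and PRR19, 8 and 9 genes away and named for their place, had -0.10 and -0.08. CXCL17 and CEACAM8, on either side of CEACAM1, were under the filter. The gene called was ZNF112, a zinc finger gene 10 genes from CEACAM19, at -0.64 (SE 0.11, limma adjusted p = 0.00481).

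Proteins that bind CEACAM1 or act with it were read from a list of 17 genes, of which 11 could be tested. In limma's fit 1 was called higher and 2 lower in PTTG1-/- cells, and 8 did not pass, with a median log2 difference of 0.05. Of these 11 genes 27.3% were called, against 17.4% of all genes tested. The adaptor SHC1 was higher by 1.33-fold at its brighter probe (log2 difference 0.42, SE 0.08, adjusted p = 0.00816). The other SHC1 probe kept had 0.28 and did not pass (SE 0.11, adjusted p = 0.125 in limma's fit of every probe). S100A10, the partner of annexin A2, fell by 0.37 in log2 level (SE 0.08, adjusted p = 0.0109). PTPN11, which encodes SHP-2, fell by 0.30 (SE 0.08, adjusted p = 0.0374), but lost its call without PTTG1-/- array 1 or 2 or any 1 WT array (adjusted p up to 0.136), and in 9 of 14 alternatives in all (up to an adjusted p of 0.174). PTPN6, which encodes SHP-1 and is named for its role after its value was seen, was above background on all 6 arrays with a difference of 0.12 (SE 0.08, adjusted p = 0.368). Both phosphatases that the long CEACAM1 tail recruits were thus measured in both lines. HAVCR2 (TIM-3), a binding partner on T cells, and INSR were under the filter.

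Of 12 factors known to act on transcription or splicing of CEACAM genes, 11 were tested. Among them 2 were called higher, 1 lower and 8 did not pass. Their median log2 difference was 0.08, and 27.3% were called, against 17.4% of all genes tested. The transcription factors SOX9 and TFAP2A (AP-2α) were higher by 1.54-fold and 1.50-fold (log2 differences 0.62 and 0.59, SE 0.08 and 0.09, limma adjusted p = 0.00105 and 0.00318), and both kept their call in all 14 alternatives. HNRNPM, a splicing factor known to act on the CEACAM1 tail exon, fell by 0.31 (SE 0.08, adjusted p = 0.0253), and lost the call without PTTG1-/- array 1 or any 1 WT array (adjusted p up to 0.0869), and with median scaling, no normalization or the replicate block (adjusted p up to 0.118). That HNRNPM value is of its brightest probe. Its other kept probes had -0.35, -0.31 and -0.23 (adjusted p = 0.0375, 0.0872 and 0.112 in limma's fit of every probe). IRF1, through which interferon raises CEACAM1, had a difference of 0.18 (SE 0.08, adjusted p = 0.140).

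Genes that build or trim the lipid anchor of CEACAM5, CEACAM6 and CEACAM7 were measured above background almost throughout, although those 3 genes were not. Of 28 such genes 27 were tested, and 11.1% of them were called, against 17.4% of all genes tested. None was called higher, 3 were called lower and 24 did not pass, with a median log2 difference of -0.07. Those called were PIGM and PIGV, mannosyltransferases of the pathway, at -0.50 and -0.36 (SE 0.10 and 0.09, limma adjusted p = 0.0126 and 0.0299), and PIGW, an acyltransferase, at -0.39 (SE 0.09, adjusted p = 0.0178). PIGV lost its call without PTTG1-/- array 1 or any 1 WT array (adjusted p up to 0.0955), and without background correction, with median scaling, without normalization or with the methods' t-test (adjusted p up to 0.110). PIGW lost its call without PTTG1-/- array 1 or 2 or WT array 1 or 3 (adjusted p up to 0.0685), and with median scaling, no normalization or the methods' t-test (adjusted p up to 0.109).

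The colonocyte genes beside which CEACAM5, CEACAM6 and CEACAM7 are known were mostly at background too. Of 21 in the list 19 had a probe and 4 could be tested. None was called higher, 1 lower and 3 did not pass (median log2 difference -0.08). That was 25.0% of these 4 genes, against 17.4% of all genes tested. KRT20, MUC2, VIL1, CDH17, CDX1, LGALS4 and FABP1 were among the 15 under the filter. KLF4, a factor of epithelial differentiation, fell by 0.69 in log2 level at its brighter probe (SE 0.13, limma adjusted p = 0.00871). The other KLF4 probe had -0.19 and did not pass (SE 0.10, adjusted p = 0.233 in limma's fit of every probe). CA2, a carbonic anhydrase of colonocytes, had 0.38 at both of its probes (SE 0.13, adjusted p = 0.0680 at the brighter) and was called higher in 3 of 14 alternatives. CDX2, the intestinal homeobox factor, differed by 0.03 (SE 0.08, adjusted p = 0.797).

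Among 26 other adhesion molecules of the immunoglobulin superfamily, 13 were tested, and 1, CXADR (the coxsackievirus and adenovirus receptor of tight junctions), was called. It was 1.66-fold lower in PTTG1-/- cells (log2 difference -0.73, SE 0.08, limma adjusted p = 0.000527), and the median of the 13 was 0.10. Of the 13, 7.69% were called, against 17.4% of all genes tested. BSG (basigin) had 0.27 (SE 0.09, adjusted p = 0.0770).

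Markers of the epithelial line were measured for 7 of 8 genes, with summed intensities of 17454 to 21868 in PTTG1-/- cells and 19961 to 21902 in WT cells. None was called higher, 3 were called lower and 4 did not pass (median log2 difference -0.17). The share called was 42.9% of these 7 genes, against 17.4% of all genes tested. CLDN7 had -0.70, CDH1 (E-cadherin) -0.53 and EPCAM -0.32 (SE 0.08, 0.09 and 0.09, limma adjusted p = 0.000788, 0.00398 and 0.0339), and EPCAM lost its call without PTTG1-/- array 1 or 2 or any 1 WT array (adjusted p up to 0.110), and with median scaling, no normalization, the methods' t-test or the replicate block (adjusted p up to 0.191). That EPCAM value is of its brightest probe. Its other kept probes had -0.68 and -0.48 (SE 0.13 and 0.14, adjusted p = 0.0117 and 0.0518 in limma's fit of every probe). KRT19, a keratin, lay the other way at 0.23 (SE 0.07, adjusted p = 0.0525) and was called higher in 6 of 14 alternatives. CEACAM1 is also made by blood cells. Of 12 blood and stroma markers 3 were tested, with 1 called higher, none lower and 2 not passing (median log2 difference -0.03). That was 33.3% of these 3 genes, against 17.4% of all genes tested. On any array 4 of the 21 probes of these markers passed background, and their summed intensity was 1227 to 1311 in PTTG1-/- cells and 1186 to 1289 in WT cells. PTPRC, ITGAM, S100A8 and S100A9, taken here as markers of leukocytes and granulocytes, were under the filter. COL1A1 was above background on all 6 arrays, with a difference of -0.15 (SE 0.18, limma adjusted p = 0.620). CD14 was above it on 1 PTTG1-/- array and 2 WT arrays, with a difference of -0.03 (SE 0.11, adjusted p = 0.863). HBA1, whose probe may also bind transcripts of its near-identical copy, was higher by 0.44 (SE 0.11, adjusted p = 0.0264), a call lost without PTTG1-/- array 1 or 2 or any 1 WT array (adjusted p up to 0.0819), and without the filter or with the methods' t-test (adjusted p up to 0.133). The part of either marker list in the CEACAM1 difference was not tested.

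**Figure D4:**
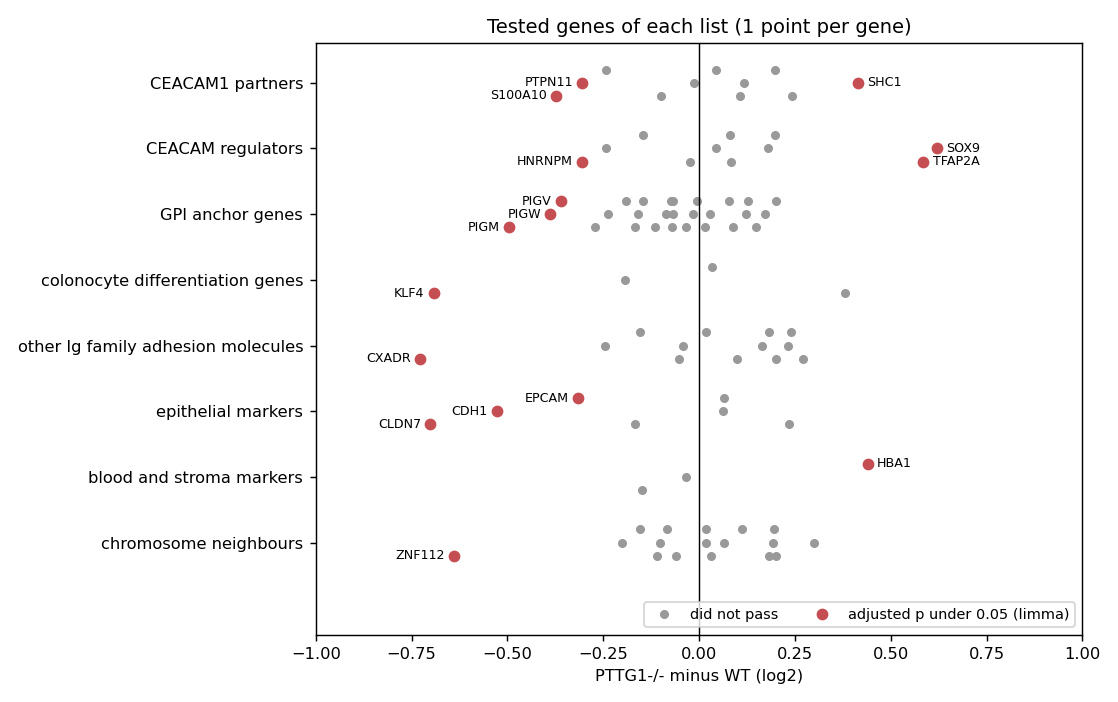
Difference in log2 level, PTTG1-/- minus WT (x axis), of each tested gene in 8 gene lists (rows), with red points for genes at a limma adjusted p under 0.05 and grey points for the rest. Of the 16 genes called, SHC1, SOX9, TFAP2A and HBA1 lie right of 0 and 12 lie left of it.

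Over the 6 arrays, the genes whose log2 levels ran most like that of CEACAM1 were CALU (calumenin, a calcium-binding protein of the secretory pathway), IGFBP3 (a binding protein of insulin-like growth factors) and STX2 (a syntaxin of membrane fusion), with Pearson's r of 0.999, 0.999 and 0.998. CALU and STX2 were higher in PTTG1-/- cells by 1.45-fold and 1.33-fold. IGFBP3, as CEACAM1, was above background on the 3 PTTG1-/- arrays and on no WT array. With 3 arrays a line, any gene that differs between the lines by more than its spread comes near such values, and 937 of 10641 genes had an r above 0.9.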

How the data were processed

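Total RNA of 3 PTTG1-/- and 3 WT samples was read on 1-colour Illumina beadchips. The authors followed the array maker's protocol and used Partek. They deposited unnormalized probe intensity on a linear scale, a fraction headed as a detection p that rises with intensity (1 minus it was used as the detection p), and processed log2 values (median 6.07), taken as quantile normalized. Of the intensity table, 12 lines without a probe name were left out. In R 4.3.3, limma 3.58.1 corrected background (neqc, controls inferred from the detection p, offset 16), normalized by quantiles and took log2. Probes with a detection p under 0.05 on at least 3 of 6 arrays were kept (17357). The annotation gave 1 gene to 30107 probes, and symbols were updated to GRCh38.p14 through gene identifiers (30068 probes) or accessions (18). Each gene was represented by its kept probe with the highest mean (10642 genes). Differences were fitted with lmFit and eBayes, with Benjamini-Hochberg adjustment over all genes. Only the fits were tested on simulated log2 values. Background correction, normalization, the filter and the lower limit were not.

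The members and gene lists were chosen with earlier results of these data known. Named are the 5 genes at every probe, PTTG1, and in each list up to 6 tested genes with the smallest p. Also named are list genes under the filter, the tested neighbours of CEACAM1, and the 3 genes most correlated with CEACAM1. Alternatives were no background correction, median scaling, no normalization, the authors' values, no filter, the mean of a gene's probes, the methods' t-test, a replicate block and leaving out each array. The number of arrays limits the precision.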

Additional observations from a re-analysis of the deposited data

How the results depend on the processing

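The log2 difference of CEACAM1 was 1.70, and was 1.06 without background correction and 1.09 in the authors' processed values. The count of 1 called gene of the 5 did not move, but it was fixed by the choice of CEACAM1 on this contrast and is no sign of stability. In the fits that left out an array, the filter stayed as set on all 6. Of all genes 1847 were called, against 1210 with median scaling, 1044 without normalization, 931 with the methods' t-test and 1009 to 2181 when 1 array was left out. Of the list genes 16 were called, against 9 with no normalization, 9 with the methods' t-test and 10 to 23 when 1 array was left out. The cause of these shifts was not tested.

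The differences of CEACAM21 and CDX2, which were not called, changed sign when 1 array was left out, with ranges of -0.038 to 0.19 for CEACAM21 and -0.012 to 0.065 for CDX2. With the replicate number as a block (replicate block), 1345 genes and 13 list genes were called. Same-numbered arrays did not deviate together (correlations -0.0737, -0.00404 and -0.115). With 3 arrays a line these values cannot settle whether the numbers pair the samples, and the labels do not say. S100A10 and PIGM lost their call without normalization, and KLF4, ZNF112 and PIGM with the methods' t-test. SHC1, SOX9, TFAP2A, CXADR, CLDN7 and CDH1 kept theirs in all 14.

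Signal over background limits most of what is described here: 6 of the 7 member probes never left background, so changes in CEACAM5, CEACAM6, CEACAM7 and CEACAM19 could not be measured, and CEACAM1 has a lower limit only.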
